A study of Mus musculus with 10 samples.

Results

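The expression of 10 genes of glycerolipid and triglyceride synthesis was followed in mouse liver while food intake was cut and then restored. They were Gpam, Gpat4, Agpat2, Agpat3, Lpin1, Lpin2, Dgat1, Dgat2, Mogat1 and Pnpla3, chosen by symbol from the 17359 genes of the deposited table. All 10 were found, and all 10 passed the filter on low counts, which kept 12789 genes. The study measured liver RNA in mice that were all kept on a high-fat diet (HFD), a diet used to induce obesity. The ad libitum controls (AL, n = 3) were never restricted. The low-calorie group (LC, n = 4) was sampled on day 3 of the cycle, when intake was cut by 70%, and the refeeding group (RF, n = 3) on day 7, the last of the free-feeding days 5 to 7. Day 2 had the same 70% cut, and days 1 and 4 had a cut of 50%. The labels used here state no strain, sex, age or hour of collection. They also do not tie each sample to its own animal, and the spread behind each p-value is therefore that between samples, which may be technical.

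Triglyceride is built by adding fatty acyl groups to a glycerol backbone. Glycerol-3-phosphate acyltransferases (GPATs) add the first acyl group and make lysophosphatidic acid, acylglycerophosphate acyltransferases (AGPATs) add the next and make phosphatidic acid, lipins remove the phosphate to give diacylglycerol, and diacylglycerol acyltransferases (DGATs) add the last. Monoacylglycerol acyltransferases (MOGATs) reach diacylglycerol from monoacylglycerol without passing through phosphatidic acid. Fatty liver in obesity is an accumulation of this product in hepatocytes, in lipid droplets whose surface carries proteins such as PNPLA3.

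Libraries held 13871533 to 15899479 expected counts. Levels of 1 gene across libraries are given as CPM, counts scaled to a common library size, after TMM scaling (trimmed mean of M values). Log2 fold changes come from edgeR's quasi-likelihood test, and a gene is said to have risen or fallen where its Benjamini-Hochberg adjusted p over all 12789 genes was below 0.05. TMM factors at LC (1.06 to 1.18) were above those at AL (0.827 to 0.952) and RF (0.964 to 0.970), so scaling enters each comparison with LC: by library totals alone the median log2 fold change of all genes for LC against AL was 0.359, against 0.048 with TMM. That choice changed the split of all genes called for LC against AL from 2045 higher and 1989 lower to 4395 higher and 686 lower, and for RF against LC from 1452 higher and 1369 lower to 673 higher and 2724 lower. Of 10 hepatocyte marker genes 6 fell at LC against AL, with a median log2 fold change of −0.47. Their summed levels were 67325 to 79775 CPM against 95018 to 114086. The 8 sinusoidal endothelial markers were mixed. Of these 4 rose and none fell, and 5 fold changes were positive and 3 negative (median 0.28). Their sums were 303 to 333 CPM against 200 to 215. Means went from 44.5 to 86.0 CPM for Stab2 and from 54.8 to 97.9 CPM for Stab1. Those of Lyve1 (4.97 to 3.27 CPM), Clec4g (26.8 to 25.7 CPM) and Pecam1 (9.69 to 9.49 CPM) went the other way. Over all genes 15.6% fell and 16.0% rose at LC against AL. In bulk tissue, fewer cells of a type and less RNA per cell cannot be told apart. From LC to RF, 4 of 10 hepatocyte markers and 4 of 8 stellate cell markers rose. Of the 8 endothelial markers 1 rose and 2 fell. Over all genes 11.4% rose and 10.7% fell from LC to RF. Adipocyte markers summed to 81.7 to 187 CPM at AL, 62.8 to 96.8 CPM at LC and 39.5 to 65.0 CPM at RF, with 7 of 8 in the table and 4 tested, of which 2 fell at LC. Among them, Adipoq reached at most 1 count and Retn at most 2 counts in a library. The order of the sums was that of Cfd, with mean levels of 101 CPM at AL, 8.77 CPM at LC and 2.07 CPM at RF. Below 5 CPM, Cidea had the same order, with means of 3.49, 0.678 and 0.499 CPM. The other markers above 5 CPM did not follow Cfd, with means at AL, LC and RF of 39.3, 66.1 and 38.0 CPM for Adrb3 and 8.19, 8.69 and 11.6 CPM for Fabp4. The part of these cell types in the results was not tested.

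Between genes, levels are compared in deposited FPKM, which are divided by transcript length. At AL the highest FPKM were those of Dgat2 (240 ± 61.5, SD, n = 3), Lpin2 (208 ± 79.1) and Agpat2 (170 ± 25.2), and neighbours in this order overlapped between libraries. Gpat4 followed at 82.3 ± 21.8 FPKM, below every Agpat2 value, then Gpam at 56.9 ± 10.9 and Agpat3 at 50.6 ± 4.40, each of which overlapped the gene before it. Lpin1 (28.9 ± 8.43 FPKM), Dgat1 (13.9 ± 1.57), Mogat1 (7.46 ± 2.24) and Pnpla3 (0.280 ± 0.161) came last, with no overlap between neighbours. At LC (n = 4) Lpin2 stood first at 293 ± 78.2 FPKM, with no overlap with Dgat2 at 214 ± 20.6, and Agpat2 was at 94.1 ± 12.3. At RF (n = 3) Dgat2 was at 213 ± 15.7 FPKM, Agpat2 at 203 ± 21.6 and Lpin2 at 177 ± 65.3, and their ranges overlapped.

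**Figure D1:**
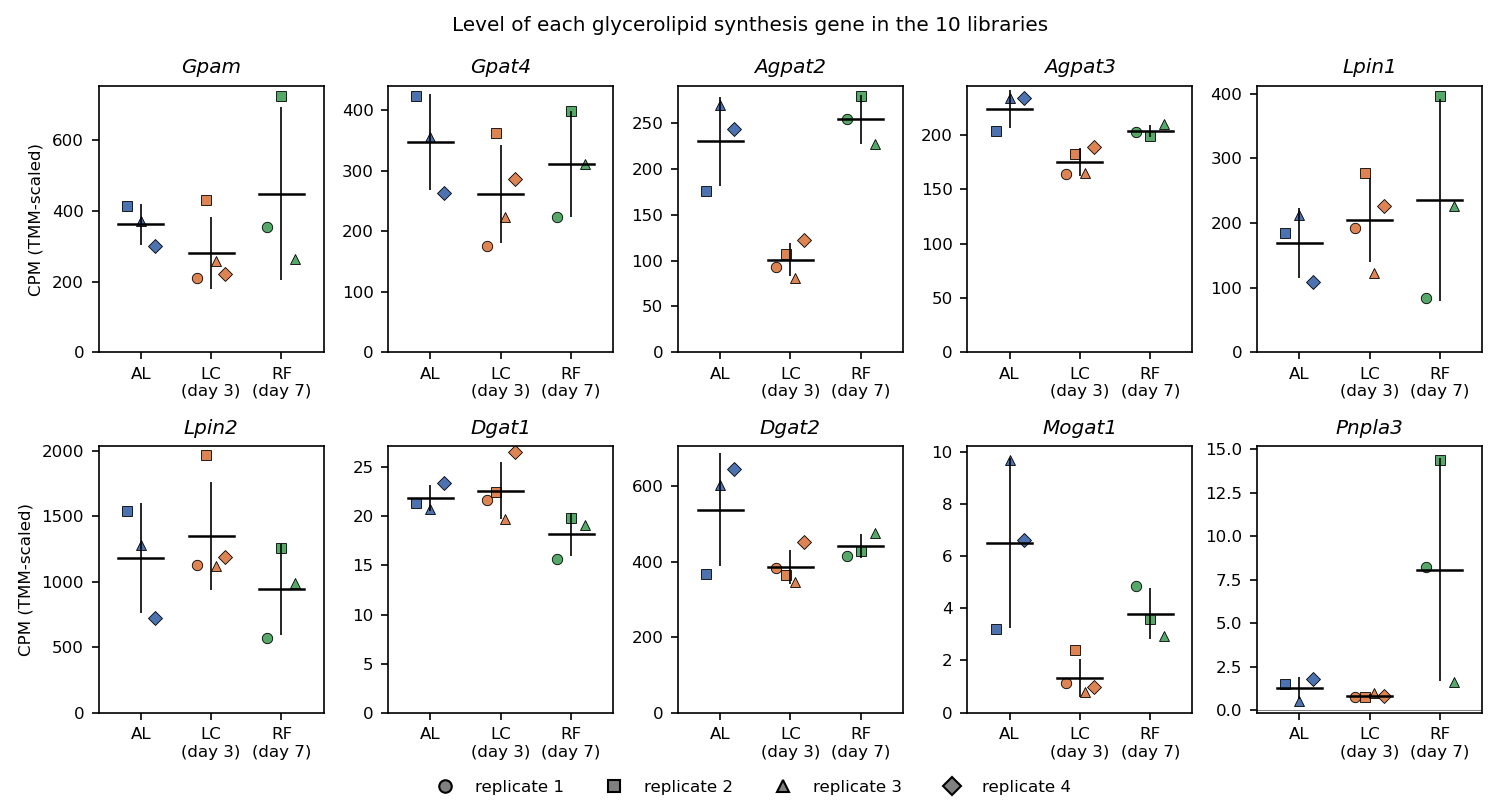
Level of each of the 10 genes in every library, in TMM-scaled CPM on linear axes from 0, by group, where horizontal bars are group means and vertical bars ± 1 SD. Agpat2 at LC lies at 80.9 to 123 CPM, below all AL and RF libraries, and Pnpla3 is above 8 CPM in RF replicates 1 and 2 only.

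On day 3 of the cycle 3 of the 10 genes were lower than at AL and none was higher. LC against AL asked what day 3 of the cycle changed relative to mice fed freely on the same diet. Agpat2, Mogat1 and Agpat3 fell, the other 7 did not pass, and the median log2 fold change of the 10 was −0.39 against 0.048 for all genes. Of the 12789 genes tested, 31.5% passed, 15.6% as lower and 16.0% as higher, so a count of 3 in 10 is close to the share of all genes that passed in either direction. Scaled by library totals, 2 of the 10 passed (Agpat2 and Mogat1), both as lower. Of all 12789 genes 5081 passed under that scaling, 4395 as higher and 686 as lower. The median of the 10 was then −0.09 against 0.359 for all genes. In 3 of 10 genes, each lower at LC, the groups did not overlap, against 35.8% of all genes (17.1% lower and 18.7% higher).

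On day 7, after refeeding, 3 of the 10 genes were higher than on day 3 and none was lower. RF against LC asked what free feeding changed within the cycle. Agpat2, Mogat1 and Pnpla3 rose, 7 did not pass, and the median was 0.23 against −0.015 for all genes. Of all genes 22.1% passed, 11.4% as higher and 10.7% as lower. The groups did not overlap in 4 of 10 genes (Agpat2, Agpat3, Mogat1 and Pnpla3, each higher at RF), against 34.1% of all genes (17.7% higher and 16.5% lower). Scaled by library totals, 4 passed, of which Dgat1 was lower. Of all 12789 genes 3397 passed under that scaling, 673 as higher and 2724 as lower.

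RF against AL asked whether the refed liver differed from that of mice never restricted. edgeR called none of the 10, with Pnpla3 the 1 gene at an unadjusted p below 0.05, against 1381 of all 12789 genes. DESeq2 called 1 (Pnpla3), against 99 of all genes, and limma voom with sample weights 0, against 50. Over all genes edgeR called 0.0547% (0.0156% as higher and 0.0391% as lower). The groups did not overlap in 1 of 10 genes, Dgat1, which was lower at RF, against 18.9% of all genes (9.38% higher and 9.56% lower). Each comparison shares a group with each of the others, so a gene's values in the 3 are not independent of each other.

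**Figure D2:**
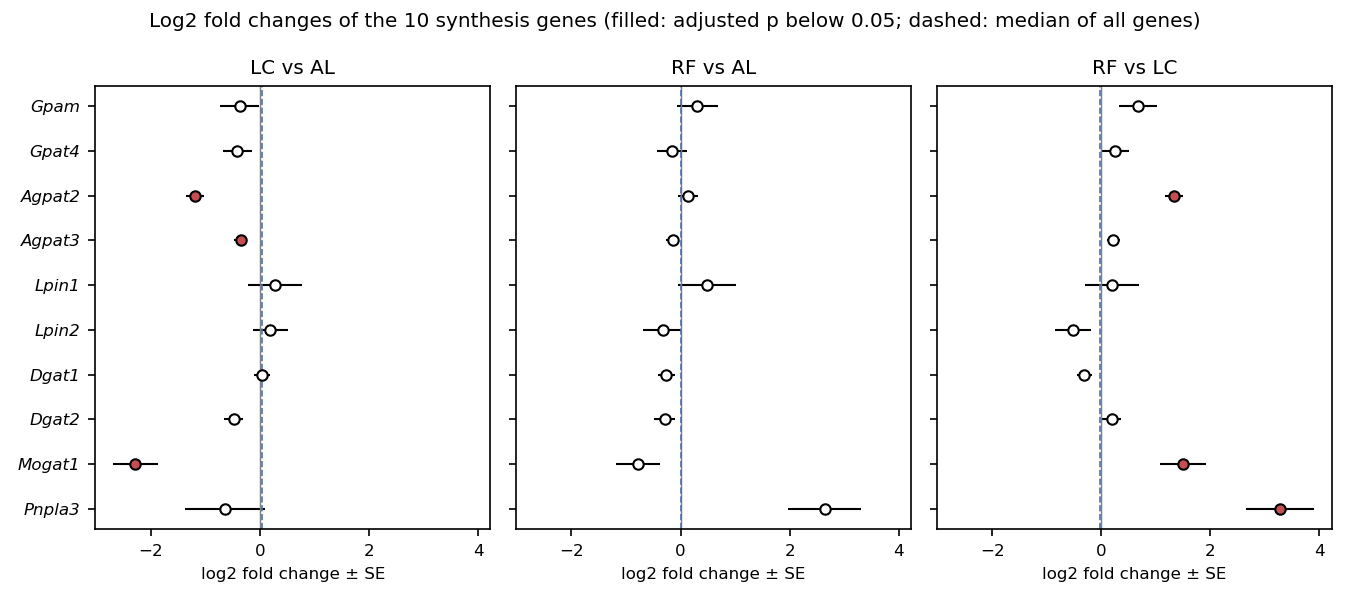
Log2 fold change with its standard error (x axis) of each of the 10 genes (y axis) in the 3 comparisons, with filled points for an adjusted p below 0.05 and a dashed line at the median of all genes. Agpat2 and Mogat1 are filled on the left for LC against AL and on the right for RF against LC, and no point is filled for RF against AL.

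The upstream sequences of the 3 genes that rose from day 3 to day 7 are shown because these genes moved in the same direction in that comparison. Each is the run of 250 bases before the annotated start, 5′ to 3′ on the gene's strand, from RefSeq on GRCm38.p6. The count table was made on GRCm39, and no position was converted. Capitals mark a CCAAT box on either strand.
Agpat2, chr2:26604418-26604667, minus strand: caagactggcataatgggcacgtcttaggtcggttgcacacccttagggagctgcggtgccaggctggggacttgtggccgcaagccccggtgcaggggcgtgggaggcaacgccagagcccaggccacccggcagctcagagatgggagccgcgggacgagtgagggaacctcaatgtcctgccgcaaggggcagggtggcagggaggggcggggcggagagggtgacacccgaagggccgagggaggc
Mogat1, chr1:78510810-78511059, plus strand: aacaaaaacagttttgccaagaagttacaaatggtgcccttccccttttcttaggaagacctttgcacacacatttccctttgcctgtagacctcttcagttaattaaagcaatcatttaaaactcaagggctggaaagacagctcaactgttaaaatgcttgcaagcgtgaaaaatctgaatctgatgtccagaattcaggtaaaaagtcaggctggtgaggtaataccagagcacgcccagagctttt
Pnpla3, chr15:84167566-84167815, plus strand: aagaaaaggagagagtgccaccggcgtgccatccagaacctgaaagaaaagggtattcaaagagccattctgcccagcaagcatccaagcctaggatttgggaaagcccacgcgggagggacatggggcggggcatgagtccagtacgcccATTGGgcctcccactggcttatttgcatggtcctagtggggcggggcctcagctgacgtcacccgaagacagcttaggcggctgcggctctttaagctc

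The 3 windows differ in composition, with 69.2% G and C for Agpat2, 58.4% for Pnpla3 and 41.2% for Mogat1. Of the 10 genes, 7 had a window in the RefSeq table, with 10 windows in all, and Gpat4, Dgat1 and Dgat2 had none. The motifs searched, on both strands, were the sterol regulatory element TCACNCCAC, the E-box CACGTG and the CCAAT box, whose letters share no stretch that would make one a part of another. The CCAAT box was found in the Pnpla3 window, 99 bases before the start, in 1 of 2 Gpam windows and in 1 of 3 Lpin2 windows, against 33.8% of all 32851 windows of this length. The E-box was found in 1 Lpin2 window, against 6.02% of all windows, and the sterol element in none, against 1.05%. A match to these letters is a description of the sequence and not of binding.

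For the GPAT step, neither Gpam nor Gpat4 passed in any comparison. Gpam encodes the acyltransferase of the mitochondrial outer membrane, known as GPAT1. It was at 414, 371 and 299 CPM at AL (replicates 2, 3 and 4), at 211, 429, 258 and 221 CPM at LC (replicates 1 to 4) and at 355, 725 and 263 CPM at RF (replicates 1 to 3). LC replicate 2 and RF replicate 2 were the highest of their groups, and all 3 groups overlapped. The log2 fold change was −0.37 for LC against AL (SE 0.35, adjusted p = 0.45), 0.68 for RF against LC (SE 0.35, adjusted p = 0.19) and 0.31 for RF against AL (SE 0.38, adjusted p = 0.80). Without RF replicate 2 the last was −0.22 (adjusted p = 0.87), and that for RF against LC was 0.15 (adjusted p = 0.76).

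Gpat4 encodes an acyltransferase of the endoplasmic reticulum that acts on the same substrate. It was at 423, 356 and 264 CPM at AL, at 175, 363, 224 and 286 CPM at LC and at 224, 399 and 311 CPM at RF. Replicate 2 was again the highest in each group, and the groups overlapped. Log2 fold changes were −0.41 for LC against AL (SE 0.26, adjusted p = 0.25), 0.25 for RF against LC (SE 0.26, adjusted p = 0.52) and −0.16 for RF against AL (SE 0.28, adjusted p = 0.87).

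At the AGPAT step, Agpat2 and Agpat3 both fell at LC. Agpat2 encodes the isoform whose loss causes congenital lipodystrophy, with an almost complete lack of fat tissue. It was at 176, 270 and 244 CPM at AL, at 92.8, 107, 80.9 and 123 CPM at LC and at 255, 280 and 227 CPM at RF. Every LC library was below every AL and RF library, and RF and AL overlapped. Agpat2 fell to 0.439 of its AL level at LC (log2 fold change −1.19, SE 0.17, adjusted p = 0.00050) and was 2.52-fold higher at RF than at LC (1.33, SE 0.17, adjusted p = 0.00051). RF and AL differed by 0.14 (SE 0.18, adjusted p = 0.81). Both changes held in each of the 20 alternative fits, at −1.35 to −0.84 and at 1.11 to 1.44.

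Agpat3 encodes an enzyme of the same reaction that is also known to act on other lysophospholipids. It was at 204, 234 and 234 CPM at AL, at 164, 183, 165 and 189 CPM at LC and at 203, 199 and 210 CPM at RF. All LC libraries lay below the others, by a narrow margin. It fell by 0.35 on the log2 scale at LC (SE 0.12, adjusted p = 0.033), and RF against LC was 0.22 (SE 0.12, adjusted p = 0.19). The difference of RF from AL was −0.14 (SE 0.12, adjusted p = 0.72). The fall depended on the scaling. With library totals alone it was −0.04 (adjusted p = 0.79), and the deposited FPKM were 45.8 to 49.1 at LC against 47.3 to 55.6 at AL. The call was also lost without AL replicate 3 (adjusted p = 0.12) or 4 (0.11), LC replicate 1 (0.081) or 3 (0.068), or RF replicate 1 (0.050), and with only the compared groups in the fit (0.060).

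The ratio of 2 genes within a library does not depend on library scaling. The log2 ratio of Agpat2 to Agpat3 counts was −1.02 to −0.62 at LC, −0.21 to 0.21 at AL and 0.11 to 0.49 at RF. LC did not overlap either other group, and its mean differed from AL by −0.83 and RF differed from LC by 1.12. By an exact two-sided permutation test over samples both had p = 0.057, the smallest that 3 against 4 samples can give (0.23 adjusted over 12 ratios compared), so this design could not reach 0.05.

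**Figure D3:**
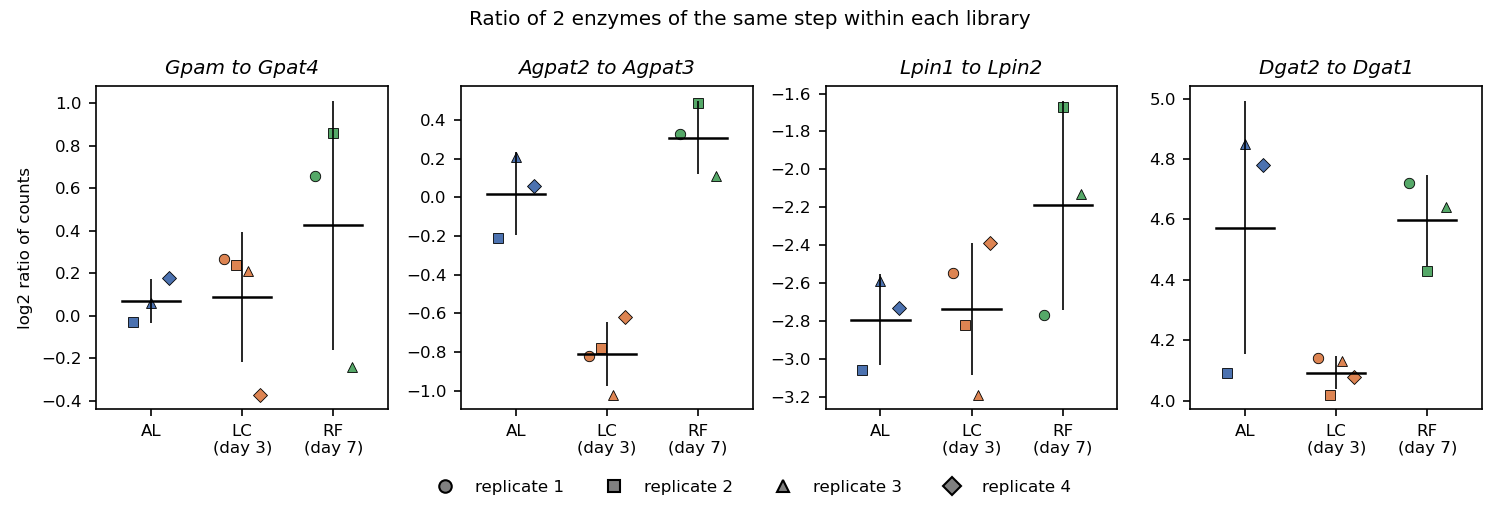
Log2 ratio of counts of the 2 enzymes of each step within each library (y axis, without a zero baseline), by group, where horizontal bars are group means and vertical bars ± 1 SD. The Agpat2 to Agpat3 ratio is lowest in the 4 LC libraries, and the Dgat2 to Dgat1 ratio is 4.02 to 4.14 at LC, below the 3 RF libraries.

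The lipins did not pass in any comparison and varied widely within groups. Lpin1 encodes lipin 1, a phosphatidate phosphatase that can also act in the nucleus as a coactivator of transcription. It was at 185, 213 and 109 CPM at AL, at 192, 278, 123 and 227 CPM at LC and at 84.1, 396 and 227 CPM at RF. The RF libraries thus held both the lowest and the highest of the 10 values. Log2 fold changes were 0.28 for LC against AL (SE 0.49, adjusted p = 0.70), 0.20 for RF against LC (SE 0.49, adjusted p = 0.80) and 0.48 for RF against AL (SE 0.53, adjusted p = 0.78). Without RF replicate 2 the last 2 were −0.40 and −0.12.

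Lpin2 encodes lipin 2, the lipin with the higher message level of the 2 in these livers, with an Lpin1 to Lpin2 ratio of FPKM between 0.107 and 0.311. It was at 1538, 1283 and 722 CPM at AL, at 1124, 1963, 1120 and 1188 CPM at LC and at 573, 1258 and 993 CPM at RF. LC replicate 2 stood above the other LC libraries, and the groups overlapped. Log2 fold changes were 0.19 for LC against AL (SE 0.32, adjusted p = 0.68), −0.52 for RF against LC (SE 0.33, adjusted p = 0.28) and −0.33 for RF against AL (SE 0.35, adjusted p = 0.77). The ratio of the 2 lipins differed by 0.06 for LC against AL, 0.55 for RF against LC and 0.60 for RF against AL on the log2 scale (exact permutation p = 0.86, 0.17 and 0.30).

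At the DGAT step, neither gene passed in any comparison. The 2 enzymes share a reaction but belong to unrelated protein families. Dgat2, whose product works at the endoplasmic reticulum and the lipid droplet, was at 366, 603 and 644 CPM at AL, at 382, 364, 346 and 451 CPM at LC and at 416, 428 and 476 CPM at RF. AL replicates 3 and 4 were above all other libraries, and AL replicate 2 lay among the LC libraries. The log2 fold change for LC against AL was −0.48 and missed the threshold (SE 0.18, adjusted p = 0.053). It passed in 6 of 20 alternatives, among them DESeq2 (−0.51, adjusted p = 0.029) and the fit without AL replicate 2 (−0.70, adjusted p = 0.0024). Its size depended on the scaling. With library totals alone it was −0.16 (adjusted p = 0.46), and on both log2 FPKM scales −0.14 (adjusted p = 0.52), the weakest. Without AL replicate 3 or 4 it was −0.39 (adjusted p = 0.20) and −0.33 (adjusted p = 0.24). RF differed from LC by 0.19 (SE 0.18, adjusted p = 0.47) and from AL by −0.29 (SE 0.19, adjusted p = 0.61).

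Dgat1, which encodes the enzyme that also acts in the intestine and in retinol esterification, was at 21.4, 20.8 and 23.4 CPM at AL, at 21.7, 22.5, 19.7 and 26.6 CPM at LC and at 15.7, 19.8 and 19.1 CPM at RF. RF lay below every AL library and overlapped LC. Log2 fold changes were 0.04 for LC against AL (SE 0.14, adjusted p = 0.83), −0.31 for RF against LC (SE 0.14, adjusted p = 0.12) and −0.26 for RF against AL (SE 0.15, adjusted p = 0.54). With library totals alone RF against LC passed (−0.51, adjusted p = 0.019), and on log2(FPKM + 1) so did LC against AL (0.36, adjusted p = 0.044).

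The ratio of Dgat2 to Dgat1 counts was 16.2 to 17.6 at LC, 21.5 to 26.4 at RF and 17.0, 28.9 and 27.4 at AL. RF lay above LC without overlap, by 0.51 on the log2 scale (exact permutation p = 0.057, adjusted p = 0.23). LC against AL differed by −0.48 (exact permutation p = 0.17), with AL replicate 2 inside the LC range. The LC ratios had an SD of 0.06 on the log2 scale, against 0.42 at AL and 0.15 at RF. The ratio of Gpam to Gpat4 differed by 0.02 for LC against AL and by 0.34 for RF against LC (exact permutation p = 0.91 and 0.40).

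Mogat1, of the monoacylglycerol route, is a gene known to be raised in fatty liver of obese mice. It was at 3.19, 9.68 and 6.62 CPM at AL, at 1.13, 2.40, 0.808 and 1.00 CPM at LC and at 4.84, 3.60 and 2.94 CPM at RF. These values rest on 15 to 39 counts per library at LC, 43 to 124 at AL and 44 to 68 at RF. LC lay below both other groups without overlap, and AL replicate 2 was the lowest AL library. Mogat1 fell to 0.206 of its AL level at LC (log2 fold change −2.28, SE 0.41, adjusted p = 0.0018), in all 20 alternatives as well (−2.72 to −1.40). It rose 2.84-fold from LC to RF (1.5, SE 0.42, adjusted p = 0.023). That rise lost its call without LC replicate 1 (adjusted p = 0.059), 3 (0.057) or 4 (0.060), or RF replicate 1 (0.082) or 2 (0.061). RF against AL was −0.78 (SE 0.41, adjusted p = 0.52).

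Pnpla3 encodes a patatin-like protein of the lipid droplet whose message is known in mice to fall with fasting and rise with refeeding. It was at 1.48, 0.546 and 1.79 CPM at AL, at 0.754, 0.739, 0.969 and 0.816 CPM at LC and at 8.25, 14.4 and 1.61 CPM at RF. In counts, AL libraries held 7 to 26 and LC libraries 12 to 18, against 116, 216 and 24 at RF. RF replicates 1 and 2 were above all other libraries, and RF replicate 3 was inside the AL range and above every LC library. Pnpla3 rose 9.74-fold from LC to RF (log2 fold change 3.28, SE 0.62, adjusted p = 0.0061), or by 2.57 without RF replicate 2 (adjusted p = 0.017), by 3.77 without RF replicate 3 (adjusted p = 0.00019) and by 2.42 in limma voom with sample weights, where it did not pass (adjusted p = 0.14). RF against AL was 2.64 (SE 0.67, adjusted p = 0.24). It passed without RF replicate 3 (3.12, adjusted p = 0.0063) and in DESeq2 (2.64, adjusted p = 0.0021). LC against AL was −0.64 (SE 0.73, adjusted p = 0.53).

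Across the 10 libraries, pairs of these genes differed in how closely they moved together. On log2 CPM, Pearson's r was 0.91 for Agpat3 with Mogat1, 0.88 for Agpat2 with Agpat3, 0.87 for Agpat2 with Mogat1 and 0.84 for Agpat3 with Dgat2. It was 0.74 for Lpin1 with Lpin2 and 0.72 for Gpam with Gpat4. The lowest was −0.58, for Dgat1 with Pnpla3. These values are descriptions over libraries that share groups and scaling. Among 9296 other genes whose mean reached 5 CPM, those with the highest r to Agpat2 were Snd1 (0.988), Gjb2 (0.985) and Cyp2r1 (0.984), and to Agpat3 they were Zcchc17 (0.984), Serpina1b (0.982) and Cfap36 (0.978). For Mogat1 they were Lonp2 (0.975), Tpmt (0.973) and Dglucy (0.973), and for Pnpla3 Appl1 (0.928), F2r (0.884) and Extl2 (0.883). Serpina1b has near-identical copies, so its reads may be shared among them.

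Other genes of glycerolipid metabolism were read from a list of 28, of which 27 were tested and Mogat2 did not pass the filter. At LC against AL 5 rose, 6 fell and 16 did not pass, with a median of 0.01 against 0.048 for all genes, of which 31.5% passed (16.0% higher and 15.6% lower). At RF against LC 3 rose, 6 fell and 18 did not pass (median −0.12 against −0.015 for all genes, of which 22.1% passed, 11.4% higher and 10.7% lower). At RF against AL edgeR and DESeq2 called none. In edgeR 3 of the list had an unadjusted p below 0.05, against 1381 of all 12789 genes. With library totals alone the split was 10 higher and 1 lower at LC against AL, and 2 higher and 7 lower at RF against LC. Over all 12789 genes it was then 4395 higher and 686 lower, and 673 higher and 2724 lower. With TMM and without AL replicate 3, 2 of the list were higher and 2 lower at LC against AL. For RF against LC the list's total of 9 fell to 3 without RF replicate 3. It was 5 without LC replicate 1 or RF replicate 1 or 2.

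Acyl-CoA synthetases activate fatty acids for these steps, and 4 of their genes were listed. Acsl5 was at 307, 405 and 451 CPM at AL, at 99.0, 209, 140 and 130 CPM at LC and at 309, 465 and 305 CPM at RF. LC lay below both other groups without overlap. Acsl5 fell at LC (−1.42, SE 0.24, adjusted p = 0.0014) and rose at RF against LC (1.31, SE 0.24, adjusted p = 0.0035). Acsl4, a synthetase gene with a preference for arachidonic acid, was at 54.3, 58.4 and 44.8 CPM at AL and at 26.6 to 47.8 CPM at LC. It rose from LC to 85.5, 117 and 66.5 CPM at RF (1.34, SE 0.21, adjusted p = 0.0019). RF lay above every AL library, but RF against AL did not pass (0.77, SE 0.23, adjusted p = 0.27). LC against AL was −0.56 (SE 0.22, adjusted p = 0.063) and passed in 7 of 20 alternatives. Acsl1, the synthetase gene with the highest CPM of the 4 listed, did not pass in any comparison (−0.16 for LC against AL, SE 0.22, adjusted p = 0.62). Neither did Acsl3, with means of 51.3, 49.0 and 64.4 CPM at AL, LC and RF. Its log2 fold change was −0.07 for LC against AL (SE 0.18, adjusted p = 0.80). For RF against LC it was 0.39 (SE 0.18, adjusted p = 0.13), and for RF against AL 0.33 (SE 0.19, adjusted p = 0.57).

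The diacylglycerol kinases turn diacylglycerol back into phosphatidic acid, the reverse of the lipin reaction. The list held 3 kinase genes, grouped here after their values were seen, and all 3 rose at LC and fell at RF against LC. Over all genes 16.0% rose in the former comparison and 10.7% fell in the latter. Dgkq was at 40.9, 33.2 and 42.3 CPM at AL, at 118, 86.7, 82.1 and 94.6 CPM at LC and at 65.2, 66.1 and 48.4 CPM at RF, with no overlap between any 2 groups. Its log2 fold changes were 1.30 (SE 0.16, adjusted p = 0.00028) and −0.67 (SE 0.16, adjusted p = 0.010), the latter lost without RF replicate 3 (0.056). RF against AL did not pass for Dgkq (0.62, SE 0.17, adjusted p = 0.24). In that comparison 18.9% of all genes did not overlap. Dgke changed by 0.80 (adjusted p = 0.016) and −0.91 (adjusted p = 0.012), and Dgka by 0.57 (adjusted p = 0.011) and −0.50 (adjusted p = 0.030). Dgke lost its rise without AL replicate 3 (0.081) and its fall without RF replicate 3 (0.056), and Dgka lost its fall without LC replicate 1 or 4 or RF replicate 1 or 2 (0.064 to 0.11). Both signs held with library totals alone for all 3.

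**Figure D4:**
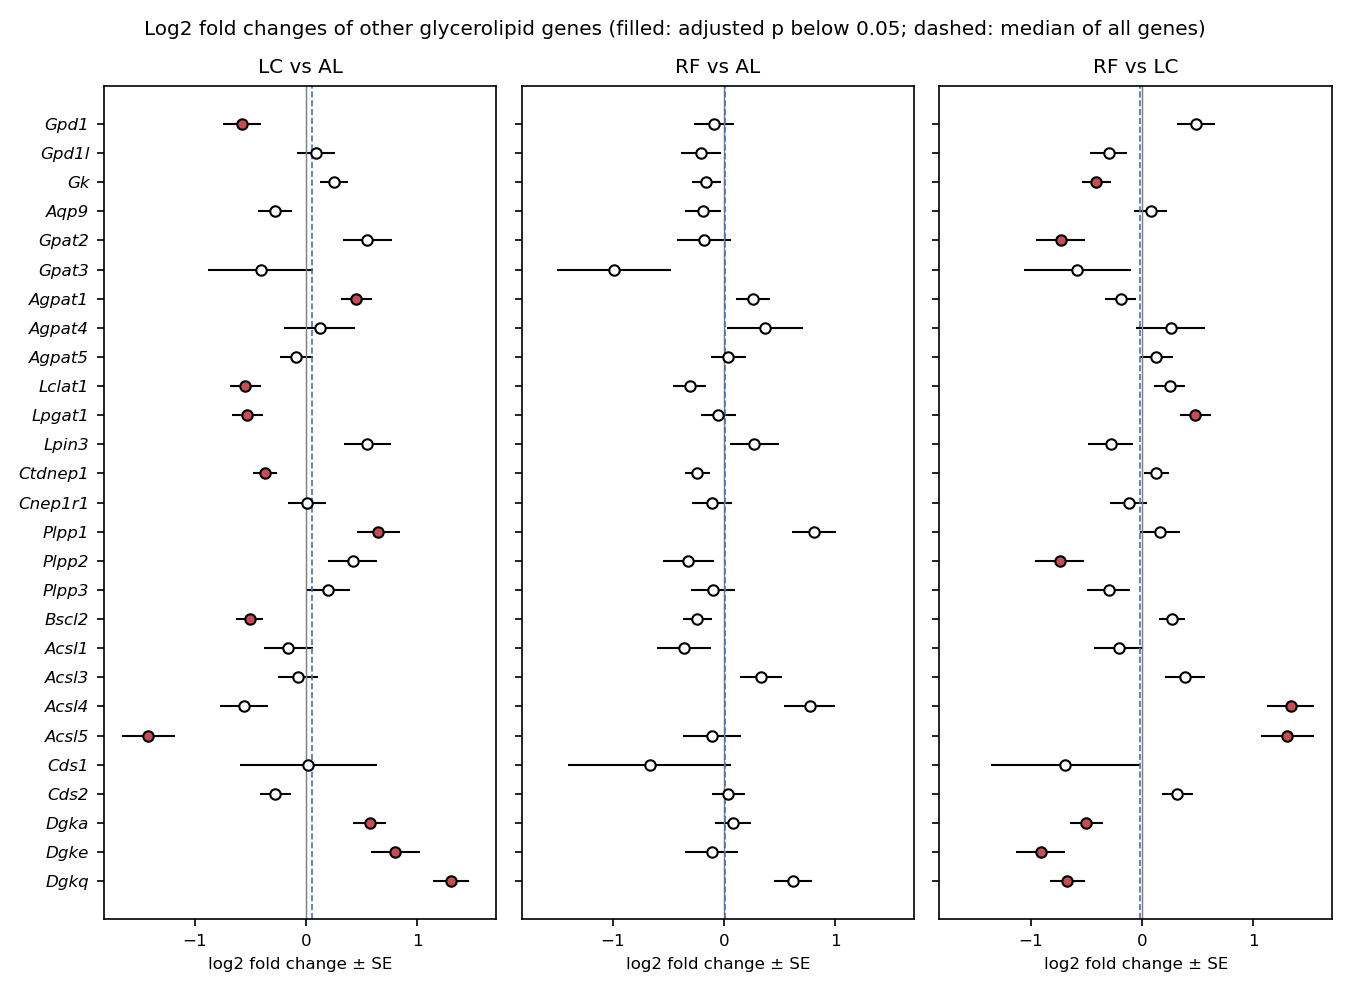
Log2 fold change with its standard error (x axis) of the 27 tested genes of the wider glycerolipid list (y axis) in the 3 comparisons, with filled points for an adjusted p below 0.05 and a dashed line at the median of all genes. Acsl5 is filled at −1.42 for LC against AL and 1.31 for RF against LC, and the 3 kinase genes at the bottom are filled on opposite sides of 0 in these comparisons.

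For the glycerol backbone, Gpd1, which makes glycerol-3-phosphate from a glycolytic intermediate, fell at LC from 323 to 216 CPM (−0.58, SE 0.17, adjusted p = 0.021). RF against LC was 0.49 (SE 0.17, adjusted p = 0.055). Gk, the glycerol kinase gene, was at 204 CPM at LC and fell to 154 CPM at RF (−0.41, SE 0.13, adjusted p = 0.035), a call lost without LC replicate 1, 3 or 4 or any RF replicate (0.057 to 0.11). The Gpd1 fall was lost with library totals alone (−0.26, adjusted p = 0.23), without AL replicate 3 (0.12) and without LC replicate 3 (0.055). Among further acyltransferases, Agpat1 rose at LC from 20.4 to 27.8 CPM (0.45, SE 0.14, adjusted p = 0.025), opposite in sign to Agpat2. Its call ended when AL replicate 2 (0.060), AL replicate 3 (0.11) or LC replicate 1 (0.063) was left out. Gpat3 was at 9.67 to 35.5 CPM at LC and did not pass (−0.41 for LC against AL, SE 0.47, adjusted p = 0.54). Its mean was 30.8 CPM at AL and 15.5 CPM at RF, with every RF library below every AL library. In that comparison 9.56% of all genes were lower without overlap. RF against AL did not pass either (−0.99, SE 0.51, adjusted p = 0.53). Gpat2, a further GPAT gene, fell from 6.34 CPM at LC to 3.83 CPM at RF (−0.73, SE 0.22, adjusted p = 0.031). This rests on 92 to 136 counts per library at LC and 47 to 63 at RF. The Gpat2 call was not followed through the alternative fits.

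Bscl2, the gene of seipin, which shapes nascent lipid droplets, fell at LC from 46.4 to 32.5 CPM (−0.51, SE 0.12, adjusted p = 0.0065). Lclat1, a lysocardiolipin acyltransferase gene, fell from 45.2 to 30.8 CPM (−0.55, SE 0.14, adjusted p = 0.011). Lpgat1 fell from 171 to 118 CPM (−0.53, SE 0.14, adjusted p = 0.014) and rose again at RF to 166 CPM (0.48, SE 0.14, adjusted p = 0.029), or by 0.27 with library totals alone (adjusted p = 0.19). With library totals alone these falls were −0.19, −0.23 and −0.21 and none passed (adjusted p = 0.26, 0.18 and 0.28). Without AL replicate 3 the falls of Lclat1 and Lpgat1 lost their calls (0.074 and 0.055), as did that of Lpgat1 without AL replicate 4 (0.054). The rise of Lpgat1 lost its call without LC replicate 1, 2 or 4 or RF replicate 1 or 3 (0.054 to 0.13).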

How the data were processed

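Poly(A)-enriched, unstranded liver RNA libraries (10 samples, RNA integrity 6.6 to 8.5) were sequenced on the DNBSEQ platform, per the labels' protocols. The authors deposited expected counts (10.9% of values not whole) and FPKM, fragments normalised for transcript length and depth, for each gene. Per the submitters' processing notes, HISAT, Bowtie2 and GRCm39 were used, and the labels do not say which program counted the reads or with which annotation. Without strand, overlapping genes cannot be told apart.

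Expected counts were rounded, filtered with filterByExpr, scaled by TMM and fitted with a mean per group over all 10 libraries in edgeR 4.0.16 (glmQLFit, robust, R 4.3.3). Adjusted p-values are Benjamini-Hochberg over all genes tested, from its quasi-likelihood test. Standard errors were derived from the F statistic and the log2 fold change. The edgeR, DESeq2 and voom fits were also run on simulated counts, with no shift in scaling between groups built in. That run cannot speak to the calls that depend on scaling. Alternatives were DESeq2 1.42.0, limma 3.58.1 (voom with sample weights, and log2 FPKM with 1 or 0.1 added), RLE factors, library totals, other filters (none, or a mean of 1 CPM), the compared groups alone, a replicate block and each library left out. Ratios were log2 of counts + 0.5.

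The genes, lists and tests were chosen with earlier results of these data known. Named were all 10 genes, the 8 called genes of the wider list with the smallest adjusted p, 6 set genes of it (Gpd1, Gk, Gpat3, Agpat1, Acsl1 and Acsl5, the last also among the 8), and for each of the called members the 3 genes most correlated with it. Gpat2, a GPAT gene that was called, and Acsl3, the remaining acyl-CoA synthetase gene of the list, were added to these. They are not counted among the named genes. Reads shared between overlapping or near-identical genes limit single values.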

Additional observations from a re-analysis of the deposited data

Results flagged for a closer look

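In the LC group, the only group with 4 samples, the highest and lowest library of 23 named genes were compared with the gap to the nearest other library. Lpin2 was flagged because LC replicate 2 stood at 1963 CPM, against 1120 to 1188 CPM in the other LC libraries. Bscl2 was flagged because LC replicate 1 stood at 38.4 CPM, against 30.1 to 31.1 CPM in the others. Chance flags about 1 in 20 groups.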

How the results depend on the processing

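Of the 600 values from 20 alternative fits of the 10 genes' fold changes, 554 kept their direction and side of the threshold, 17 lost a call, 14 gained one and 15 changed sign. For the 13 other named genes the numbers were 699, 43, 18 and 20 of 780, and for the ratios 134 of 144 kept theirs and 10 changed sign. The causes were not tested. The 7 genes called for RF against AL became 99 in DESeq2, 50 in limma voom, 13 with no filter and 1 on either log2 FPKM scale, and DESeq2 called 1 of the 10 synthesis genes there. With 1 library left out, genes called ranged from 2110 (without AL replicate 3) to 4353 for LC against AL (main 4034), from 1 to 13 for RF against AL, and from 1435 (without RF replicate 2) to 3141 for RF against LC (main 2821). It was 2557 for LC against AL without AL replicate 4 and 1642 for RF against LC without RF replicate 3. Among the 10 genes these ranges were 2 to 4, 0 to 1 and 2 to 3, and among the other glycerolipid genes 4 to 13, 0 to 0 and 3 to 9.

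Signs changed in fold changes that had not passed. With library totals and both FPKM scales, Acsl1 for LC against AL became 0.15, 0.15 and 0.15, Gpd1 for RF against AL 0.03, 0.03 and 0.03, Dgat2 for RF against LC −0.01, −0.01 and −0.01, and Lpgat1 for RF against AL 0.06, 0.05 and 0.06. For RF against AL, Acsl5 became 0.01 with library totals, and Dgke 0.05 in voom and 0.02 on log2(FPKM + 0.1). Lpin1 for RF against LC became −0.19 and −0.20 on the FPKM scales, and the FPKM ratio of Dgat2 to Dgat1 for RF against AL −0.01. With 1 library left out, LC against AL ranged from −0.07 to 0.43 for Lpin2 and −0.04 to 0.11 for Dgat1. RF against AL ranged from −0.22 to 0.57 for Gpam, −0.38 to 0.03 for Gpat4, −0.02 to 0.28 for Agpat2, −0.12 to 0.88 for Lpin1, −0.34 to 0.01 for Acsl5, −0.03 to 0.15 for Dgka, −0.35 to 0.06 for Dgke, −0.15 to 0.07 for Lpgat1 and −0.15 to 0.04 for Gpd1. RF against LC ranged from −0.40 to 0.60 for Lpin1 and −0.31 to 0.02 for Acsl1. The ratios ranged from −0.04 to 0.17 for Gpam to Gpat4 and −0.08 to 0.21 for Lpin1 to Lpin2 (LC against AL), and from −0.22 to 0.16 for Dgat2 to Dgat1 (RF against AL).

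Whether replicate numbers pair the samples was not settled. The correlation of same-numbered deviations was −0.046 to 0.065 for LC with AL and −0.040 to 0.014 for RF with AL. For RF with LC it was 0.049 to 0.252. RF replicates 1 and 2 correlated best with their own number among LC libraries (0.252 and 0.185). RF replicate 3 did so with LC replicate 4 (0.117). As a fit that shares only a number, the replicate block called 3858 genes for LC against AL, 5 for RF against AL and 3230 for RF against LC, and 2, 0 and 3 of the 10 genes. With the block, Agpat3 for LC against AL was −0.33 (edgeR adjusted p = 0.061), and for RF against LC Mogat1 was 1.44 (0.085), Lpin2 −0.67 (0.024), Dgka −0.47 (0.052), Gpat3 −0.60 (0.013) and Lpin1 −0.06. Acsl4 for LC against AL was −0.54 (0.045), and Acsl5 for RF against AL 0.02. No other call of a named gene changed with the block. Gpam for RF against LC did not pass with it either (0.55, SE 0.21, edgeR adjusted p = 0.075). Not every sample correlated best with its own number. Depth limits Pnpla3 and Mogat1, with as few as 7 and 15 counts in a library.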
